A study of Arabidopsis thaliana with 8 samples.

Results

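Berberine bridge enzyme-like (BBE-like) proteins of Arabidopsis thaliana are oxidases with a bound FAD, named after the plant enzyme that closes the berberine bridge in alkaloid synthesis. The 7 genes described here are AT1G26380, AT1G26390, AT1G26400, AT1G26410, AT1G26420, AT1G30700 and AT1G30730. They were chosen by family and locus with earlier results of these arrays known, among them the fitted difference of AT1G26380 between aha2 and wild type. All values for aha2 against wild type, and for aha1 against aha2, are therefore descriptions with no test of these genes. The comparison of aha1 with wild type uses the same wild type arrays, so its p-values are no independent test of these genes either. Of the 7 genes, 6 had a probe set annotated with a single gene, out of 13513 single-gene probe sets and 22746 tested probe sets on the array. AT1G30730 shares its probe set, 263216_s_at, with its neighbour AT1G30720, and that signal is given under the probe set's name and left out of all counts of genes.

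The samples were whole light-grown seedlings of the Col ecotype, 5 days old, grown upright on Murashige and Skoog medium with no further treatment, and total RNA of each sample went on 1 single-colour array. There were 2 arrays of wild type. Of aha1 there were 2 arrays of aha1-6 plus 1 of aha1-7, and of aha2 there were 2 of aha2-4 plus 1 of aha2-5. The affected genes, AHA1 and AHA2, encode proton pumps of the plasma membrane, and each mutant carries a mutation in 1 of them. A string in the sample descriptions splits the arrays into set 1 (1 array per group) and set 2 (1 wild type, 2 aha1, 2 aha2, including both second alleles), so each second allele was measured once and in set 2 only. The labels do not name separate cultures behind the arrays of a group, so p-values cover only the spread among these samples, and that spread may be technical.

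Members of the family oxidise a range of substrates, among them cell wall oligosaccharides, lignin precursors and indole compounds, and several are known for transcripts that rise after wounding or pathogen attack. AT1G26380, known as FOX1, acts in the synthesis of indole carbonyl nitriles, which are defence compounds. AT1G26380 to AT1G26420 follow each other on chromosome 1 with 0 other annotated genes between them. AT1G30700 and AT1G30730 belong to a second run of family genes on the same chromosome, with AT1G30710 and AT1G30720 between them and AT1G30740 next to AT1G30730. Neighbouring copies can be alike in sequence, and whether probes of 1 gene also bind RNA of another was not tested.

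Levels are given as signal, the deposited linear intensity, or as normalized log2 intensity, which is log2(signal + 1) after quantile normalization. The median signal of an array was between 358.1 and 410.2. The aha1-7 array stood apart: its correlations with the remaining arrays, over the 11373 brighter probe sets, had a median of 0.887, whereas those medians were 0.959 to 0.971 for the other 7. Fitted differences of aha1 for the 6 genes are given with and without it. Differences are fitted log2 differences from a linear model over all 8 arrays with group and set as terms (limma). A gene passed where its p-value, adjusted over all tested probe sets with the Benjamini-Hochberg method, was under 0.05. In each of the comparisons of aha2 with wild type, aha1 with wild type and aha1 with aha2, 0 of 22746 probe sets (0%) passed. At an unadjusted p under 0.05 the shares were 4.04%, 5.01% and 10.6%.

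AT1G26380 was higher in both mutants than in wild type on every array. Its signal was 240.2 and 131 on the wild type arrays of sets 1 and 2, 338 and 403 on the aha1-6 arrays, and 678 on the aha1-7 array. On the aha2-4 arrays it was 514 and 581, and on the aha2-5 array 866. The groups did not overlap between either mutant and wild type, while aha1 and aha2 did overlap, because the aha1-7 array lay above both aha2-4 arrays. In normalized log2 intensity wild type was at 7.45 ± 0.60 (SD, n = 2), aha1 at 8.77 ± 0.55 (SD, n = 3) and aha2 at 9.37 ± 0.40 (SD, n = 3). The fitted difference of aha2 from wild type was 1.88 (SE 0.44), a 3.69-fold difference. For aha1 it was 1.29 (SE 0.44), a 2.44-fold difference that did not pass (limma, adjusted p = 0.935, unadjusted p = 0.0269).

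The wild type arrays differed from each other at AT1G26380 by 0.85 on the log2 scale, with the set 2 array lower. Against the wild type array of its own set, aha2-4 was higher by 1.17 in set 1 and by 2.23 in set 2, and aha2-5 by 2.78. The aha1-6 arrays were higher by 0.43 and 1.61, and aha1-7 by 2.34. All 6 differences were above 0, and both alleles of each mutant lay on the same side. Those of set 1 were the smaller ones in each mutant. Without the aha1-7 array the fitted difference of aha1 from wild type was 1.02, and without the set 2 wild type array it was 0.50.

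AT1G26410 separated aha2 from all other arrays. Its signal was 103 and 106 in wild type, 149 and 136 on the aha1-6 arrays and 212 on the aha1-7 array. It was 323 and 262 on the aha2-4 arrays and 243 on the aha2-5 array, so the lowest aha2 value lay above the highest of the other 5. On the log2 scale wild type was at 6.72 ± 0.011 (SD, n = 2), aha1 at 7.32 ± 0.40 (SD, n = 3) and aha2 at 8.15 ± 0.18 (SD, n = 3). The fitted difference of aha2 from wild type was 1.43 (SE 0.28), a 2.69-fold difference. Against wild type of the same set it was 1.62 and 1.43 for aha2-4 and 1.24 for aha2-5. Unlike at AT1G26380, the wild type arrays of the 2 sets lay within 0.015 of each other, and the aha2 differences were about as large in set 1 as in set 2. The fitted difference of aha1 from wild type was 0.59 (SE 0.28; limma, adjusted p = 0.937), with the aha1-7 array at 1.06 and the aha1-6 arrays at 0.37 and 0.36 above the wild type of their sets.

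AT1G26420, the last gene of the run, also had all 3 aha2 arrays above the other 5. Its signal was 124 and 63.8 in wild type, 143 and 95.7 in aha1-6, 141 in aha1-7, 169 and 161 in aha2-4 and 198 in aha2-5. The wild type and aha1 arrays overlapped. The fitted difference of aha2 from wild type was 1.08 (SE 0.34), a 2.11-fold difference. It came mostly from set 2, where the differences were 1.52 and 1.66, against 0.41 in set 1. The fitted difference of aha1 was 0.49 (SE 0.34; limma, adjusted p = 0.937).

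AT1G26390, which lies between AT1G26380 and AT1G26400, differed less. Its signal was 467 and 221 in wild type, 344 and 285 in aha1-6, 420.2 in aha1-7, 470.1 and 391 in aha2-4 and 474 in aha2-5. The set 1 wild type array lay within the range of the aha2 arrays, so wild type overlapped both mutants, while aha2 lay above aha1 by a narrow margin in normalized values and overlapped it in signal. The fitted difference from wild type was 0.59 (SE 0.33) for aha2 and 0.14 (SE 0.33; limma, adjusted p = 0.964) for aha1. In set 1 the aha2-4 array was 0.056 above wild type and the aha1-6 array was below it, at -0.51.

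AT1G26400 had signals of only 4.50 to 44.3, in the range under 50 that held between 18.4% and 23.7% of the probe sets of an array. It was at 14.6 and 4.50 in wild type, 34.5 and 32.8 in aha1-6, 36.9 in aha1-7, 8.25 and 21.8 in aha2-4 and 44.3 in aha2-5. All 3 aha1 arrays lay above wild type, and the set 1 aha2-4 array lay between the wild type values. The fitted differences were 1.81 (SE 0.78; limma, adjusted p = 0.937) for aha1 and 1.17 (SE 0.78) for aha2. With an offset of 16 before taking logarithms they were 0.92 and 0.59. No fold is given, since the sizes follow the offset.

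**Figure D1:**
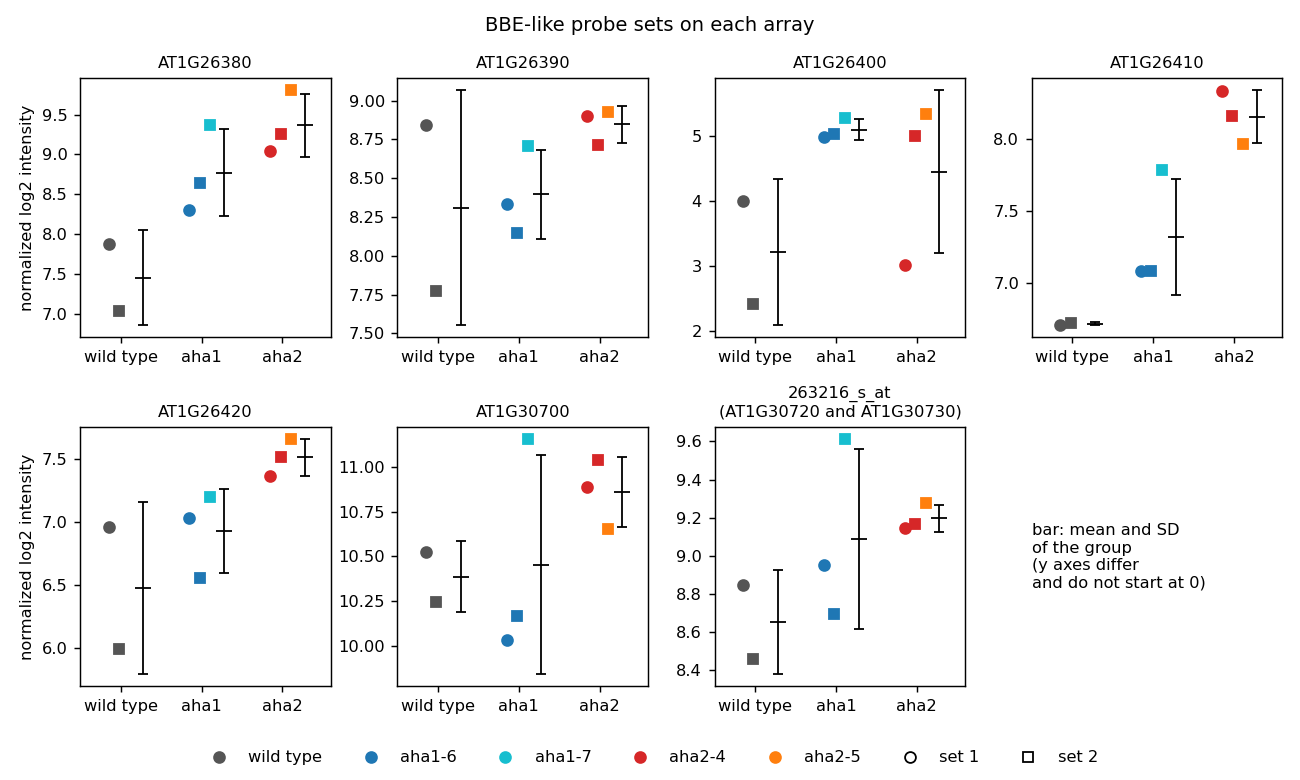
Normalized log2 intensity of the 6 genes with a single-gene probe set and of the shared probe set on each of the 8 arrays, by group. Points are arrays (colour: allele, circle: set 1, square: set 2), and bars show the group mean and SD. At AT1G26410 and AT1G26420 the 3 aha2 arrays lie above the other 5, and at AT1G30700 and the shared probe set the aha1-7 array is the highest of the 8.

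AT1G30700, of the second run, had higher signals, 1475 and 1209 in wild type, 1077 and 1168 in aha1-6, 2332 in aha1-7, 1869.7 and 2119 in aha2-4 and 1564 in aha2-5. All 3 aha2 arrays lay above both wild type arrays. The aha1-6 arrays lay below both, and the aha1-7 array was the highest of the 8. The 2 aha1 alleles thus lay on opposite sides of the other groups, at -0.49 and -0.078 for aha1-6 and 0.91 for aha1-7 against wild type of the same set. The fitted difference of aha1 from wild type was 0.044 (SE 0.38; limma, adjusted p = 0.991), and -0.28 without the aha1-7 array. For aha2 it was 0.45 (SE 0.38), a 1.37-fold difference, with 0.37 and 0.79 for aha2-4 and 0.41 for aha2-5 within the sets.

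The shared probe set, which stands for AT1G30720 and AT1G30730 together, shared the high value of the aha1-7 array with AT1G30700, but its aha1-6 arrays lay above the wild type of their set. Its signal was 466 and 354 in wild type, 520.2 and 421 in aha1-6, 807 in aha1-7, 553 and 546 in aha2-4 and 601 in aha2-5. The aha2 arrays lay above both wild type arrays, and aha1-7 was the highest of the 8. The fitted difference was 0.55 (SE 0.32) for aha2 and 0.44 (SE 0.32; limma, adjusted p = 0.937) for aha1. The signal of the individual genes cannot be told apart.

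For aha2 against wild type, all 6 fitted differences were above 0, as were 48.3% of all tested probe sets, and their median was 1.12 against -0.012 over all. The arrays of aha2 and wild type did not overlap at 4 of the 6 genes, AT1G26380, AT1G26410, AT1G26420 and AT1G30700. Over all probe sets 10.7% had every aha2 array above both wild type arrays. AT1G26380 was known from this contrast, so these counts describe the genes and nothing more is read from them. With the aha1-7 array and the dimmest 50% of probe sets by mean over all 8 arrays left out together, 0.536% of the probe sets lay past the threshold, AT1G26380 among them. This is no test of that gene, which was above the brightness limit only with the aha1-7 array counted and fell out of the fit with the limit taken over the 7 arrays fitted. All 3 aha2 arrays lay above all other 5 at 2 of the 6 genes, AT1G26410 and AT1G26420, and at 3.64% of the probe sets.

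For aha1 against wild type, 0 of the 6 passed with limma, and 1 (AT1G26380) had an unadjusted p under 0.05, as had 5.01% of all probe sets. All 6 fitted differences were above 0, where 50.4% of all probe sets were, with a median of 0.54 against 0.0025 over all. Leaving out aha1-7 lowered this median to 0.34, and AT1G26390 and AT1G30700 turned to -0.069 and -0.28. AT1G26410 and AT1G26420 were then at 0.37 and 0.32, AT1G26380 at 1.02 and AT1G26400 at 1.79. The arrays of aha1 lay above both wild type arrays at 3 of the 6 genes, AT1G26380, AT1G26400 and AT1G26410, and at 9.99% of the probe sets. The comparison uses the same 2 wild type arrays as that of aha2, so the directions in the mutants are not separate evidence. For the same reason the p-values of aha1 are no independent test of these genes. Every mutant array lay above both wild type arrays at 2 genes, AT1G26380 and AT1G26410, and at 2.27% of the probe sets.

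For aha1 against aha2, which uses no wild type array, the fitted difference was below 0 at 5 of the 6 genes, as at 48.3% of all probe sets. The median was -0.52 against 0.018 over all. The differences ran from -0.83 (SE 0.25) at AT1G26410 to 0.65 (SE 0.69) at AT1G26400. In normalized values every aha1 array lay below every aha2 array at AT1G26390, AT1G26410 and AT1G26420, 3 of the 6, and at 8.09% of the probe sets. In deposited signal this did not hold at AT1G26390. By allele, the median over the 6 genes of aha2-4 minus aha1-6 was 0.65 in set 1 and 0.74 in set 2. It was 0.83 for aha2-5 minus aha1-6 but -0.057 for aha2-4 minus aha1-7 and 0.20 for aha2-5 minus aha1-7. The medians for aha1-7 cover genes on both sides: aha2-4 and aha2-5 lay above it by 0.37 and 0.18 at AT1G26410 and by 0.31 and 0.46 at AT1G26420, and below it at AT1G30700, at -0.12 and -0.50. Without the aha1-7 array the median of the fitted differences of aha1 from aha2 was -0.77, and they ran from -1.08 at AT1G26410 to 0.62 at AT1G26400, with -0.88 at AT1G26380, -0.67 at AT1G26390, -0.78 at AT1G26420 and -0.77 at AT1G30700. With the dimmest 50% of probe sets left out as well, 3.15% of the probe sets lay past the threshold, AT1G30700 among them, which is a description and no test of that gene.

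The wild type arrays of the 2 sets differed at most of these genes. Of the 6 genes, 5 were lower on the set 2 wild type array than on that of set 1, with a median of -0.90, where 48.7% of all probe sets were lower and their median was 0.013. The aha1-6 and aha2-4 pairs differed between the sets by medians of 0.029 and 0.15 over the 6 genes, with single genes on both sides of 0 and the aha2-4 pair 1.97 apart at AT1G26400. Against wild type of the same set, the median of the 6 genes was 0.39 for aha2-4 in set 1 (5 of 6 higher, 49.9% of all probe sets) and 1.47 in set 2 (6 of 6 higher, 48.7%). It was 1.45 for aha2-5 (6 of 6 higher, 49.6%). For aha1-6 it was 0.22 in set 1 (4 of 6 higher, 49.8%) and 0.47 in set 2 (5 of 6 higher, 50%), and for aha1-7 it was 1.13 (6 of 6 higher, 53.1%). Without the set 2 wild type array, the median of the fitted differences fell to 0.34 for aha2 and 0.13 for aha1, and without the set 1 wild type array it was 1.47 and 0.78.

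**Figure D2:**
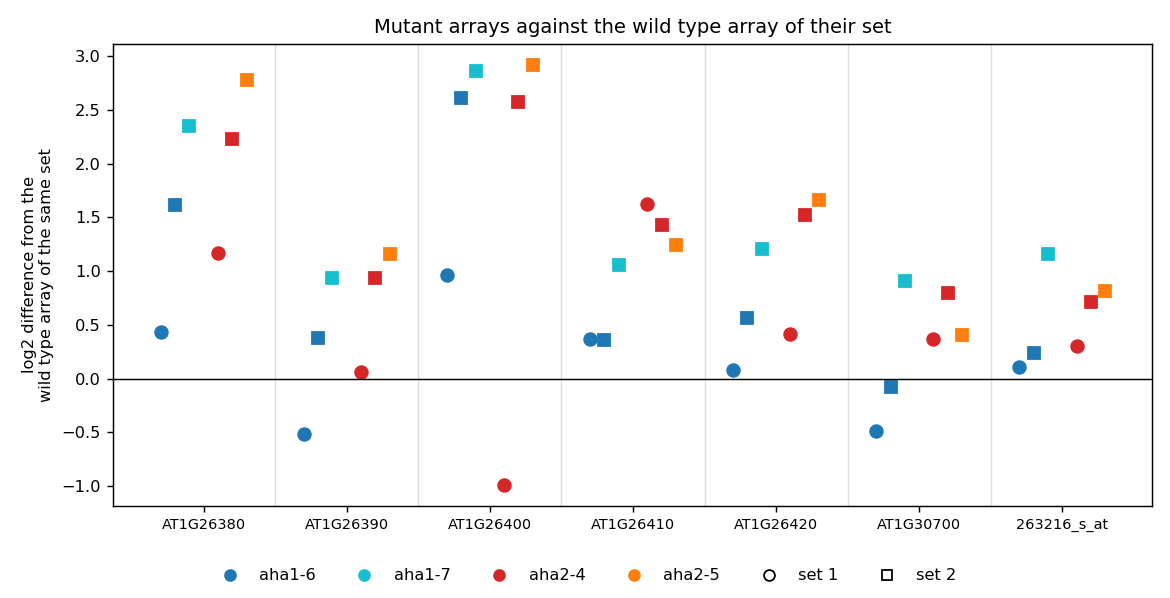
Log2 difference of each mutant array from wild type of its set, for the 6 genes and the shared probe set (colour: allele, circle: set 1, square: set 2). Set 2 differences exceed those of set 1 at most genes, whereas at AT1G26410 the aha2-4 array of set 1, at 1.62, is the highest of the 6.

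In normalized values the aha1-7 array was the highest array only at AT1G30700 among these genes. It lay below every aha2 array at AT1G26390, AT1G26410 and AT1G26420. At each of these genes, however, it was above the mean of the other arrays. Its deviation from that mean ran from 0.19 (AT1G26420) to 1.03 (AT1G26400), with AT1G26380 at 0.81 and AT1G30700 at 0.65. The share of all probe sets above that mean was not counted. Over all tested probe sets the median of this deviation was 0.080. The part of the array's departure from the rest in the level of these genes was not tested.

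The wider BBE-like family was taken from a list of 20 further genes of the family, of which 16 had a single-gene probe set. In aha2 against wild type 8 of the 16 had a fitted difference above 0 and 8 below, with a median of 0.16 (all probe sets, -0.012). In aha1 the split was also 8 and 8, with a median of -0.023 (all, 0.0025), and in aha1 against aha2 it was 7 and 9, with a median of -0.20 (all, 0.018). With limma, 0 of the 16 passed in any of these comparisons, and the smallest adjusted p was 0.349. At an unadjusted p under 0.05 there were 0 in aha2 against wild type, 2 in aha1 against wild type (AT5G44360 and AT5G44390) and 1 in aha1 against aha2 (AT5G44360), named here after their values were seen. Over all probe sets the shares were 4.04%, 5.01% and 10.6%. All 3 aha2 arrays lay above the wild type array of their set at 6 of these 16 genes and at 5 of the 6 described here, against 18.6% of the probe sets. For aha1 the counts were 1 of 16 and 4 of 6, against 18.5%. Of the 16, only AT4G20820 had all 3 aha2 arrays above the other 5 arrays, as had 3.64% of the probe sets. The 6 genes were chosen with earlier results of these arrays known, and both mutants are set against the same wild type arrays. These counts are descriptions, and no difference between the lists is read from them.

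The 3 further family genes with the highest mean intensity were AT5G44380, AT4G20860 and AT4G20830. AT4G20830 and AT4G20860 are known as oxidases of cell wall fragments, of oligogalacturonides and of cellodextrins. At AT4G20830 wild type had a level of 9.77 ± 0.41 (SD, n = 2), aha1 of 9.99 ± 0.59 (SD, n = 3) and aha2 of 10.23 ± 0.20 (SD, n = 3). AT4G20860 was at 10.30 ± 0.61, 10.47 ± 0.55 and 10.08 ± 0.30 in the same order of groups. At both genes the largest SD within a group exceeded the differences between the group means. At AT5G44380 wild type had a level of 10.90 ± 0.33 (SD, n = 2), aha1 of 11.12 ± 0.53 (SD, n = 3) and aha2 of 11.44 ± 0.13 (SD, n = 3), with the aha1-7 array the highest at 11.70. Its fitted differences from wild type were 0.56 (SE 0.35) for aha2 and 0.24 (SE 0.35; limma, adjusted p = 0.942) for aha1. AT1G30710 and AT1G30740, which lie in the second run, had mean log2 levels of 1.83 to 2.71 and 2.05 to 2.54 in the 3 groups, near the bottom of the signal range. They were picked for their position.

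**Figure D3:**
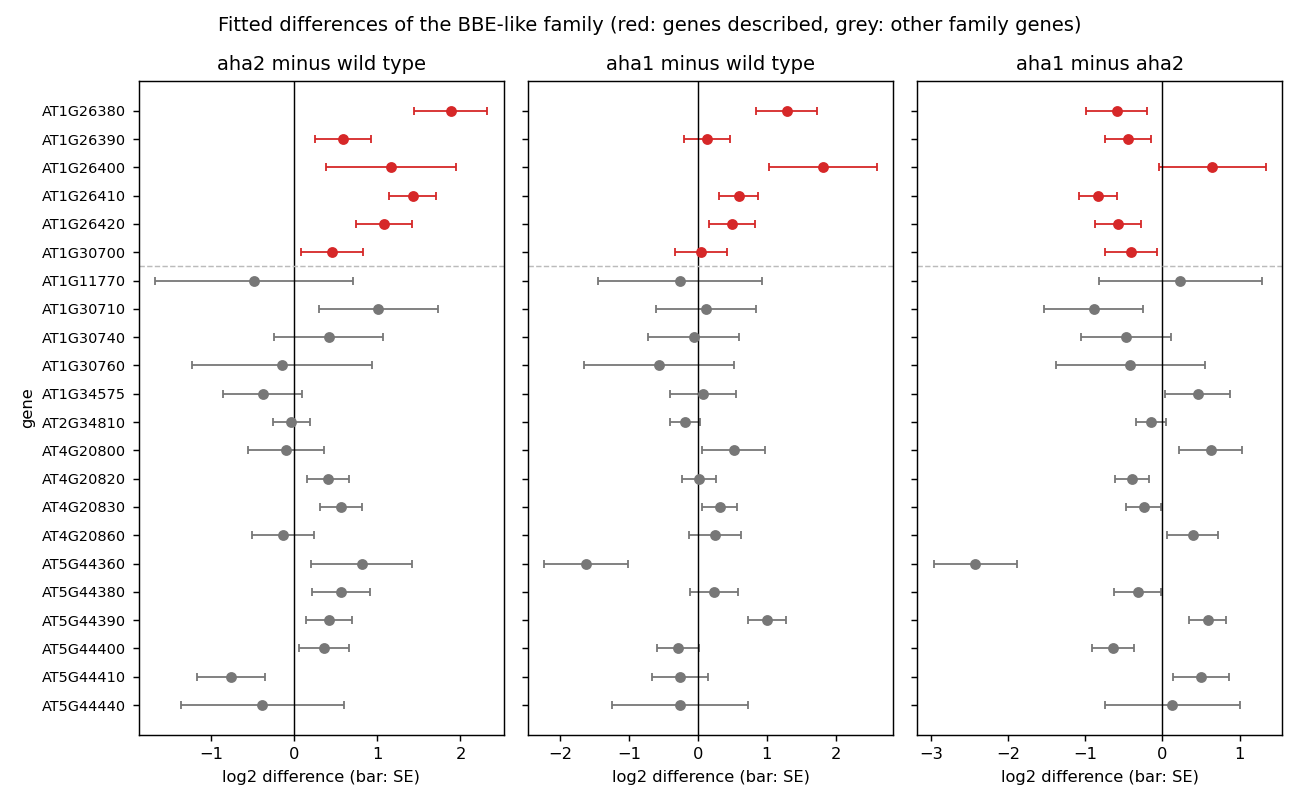
Fitted log2 differences with their SE for the 6 genes described (red) and 16 other BBE-like genes (grey), in the comparisons of aha2 with wild type, aha1 with wild type and aha1 with aha2. The red points, of genes chosen with earlier results of these arrays known, lie above 0 at all 6 genes against wild type in both mutants. The grey points split into 8 above and 8 below in each of these comparisons. Without the aha1-7 array, AT1G26390 and AT1G30700 fall below 0 in aha1. Without the set 2 wild type array, AT1G26390 and AT1G26400 do so in aha2, and AT1G26390, AT1G26420 and AT1G30700 in aha1.

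Genes with a pattern over the 8 arrays most like that of a described gene were sought among 5920 brighter single-gene probe sets. Likeness was the root mean square difference between log2 values after each gene's own mean was taken off, and only AT1G26380 and AT1G30700 were bright enough to enter. AT1G26380 itself varied by 0.85 around its mean. The nearest pattern was that of AT2G18690, at 0.31, followed by AT5G48430 (0.45), the cytochrome P450 gene CYP71B23 (0.49), the cation/proton exchanger gene CHX16 (0.55) and AT1G29530 (0.56). AT2G18690 was at 8.94 and 7.64 in wild type, 9.06 and 9.54 in aha1-6, 9.45 in aha1-7, 9.83 and 10.003 in aha2-4 and 10.05 in aha2-5. Both genes, alike by selection, had their lowest value on the set 2 wild type array and their highest on the aha2-5 array. The aha1-7 array, above both aha2-4 arrays at AT1G26380, lay below them at AT2G18690. Among these brighter probe sets the nearest family gene to AT1G26380 was AT5G44380, at rank 15 (0.64), and AT1G30700 stood at rank 26 (0.67). Its neighbours AT1G26390, AT1G26400, AT1G26410 and AT1G26420 were too dim to be ranked, so these ranks do not place them. Over the 8 arrays their Pearson's r with AT1G26380 was 0.72, 0.69, 0.84 and 0.87 in that order, and that of AT1G30700 was 0.63.

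For AT1G30700, which varied by 0.39 around its mean, the nearest pattern among the brighter probe sets was a family gene, AT5G44380, at 0.16. UGT72E1, a glucosyltransferase of lignin precursors, followed at 0.17 and CHLI2, a subunit of the magnesium chelatase of chlorophyll synthesis, at 0.18. A second family gene, AT5G44400, stood at rank 5, also at 0.18. CHLI2 was highest on the aha1-7 array, at 11.96, and its aha2 and wild type arrays overlapped, with a fitted difference of 0.12. At AT5G44380 and UGT72E1, as at AT1G30700, all aha2 arrays lay above wild type. Ranks without the aha1-7 array were not taken. AT5G44380 and AT5G44400 lie together in a run of family genes on chromosome 5. At all of these genes the aha1-7 array and both aha2-4 arrays lay above both aha1-6 arrays. AT1G30700 had this order too, and the genes were picked for likeness to it, so the shared order is no separate result. Across the 8 arrays, which share groups, Pearson's r between pairs of the 6 genes ran from 0.16 (AT1G26400 and AT1G30700) to 0.90 (AT1G26390 and AT1G26420).

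**Figure D4:**
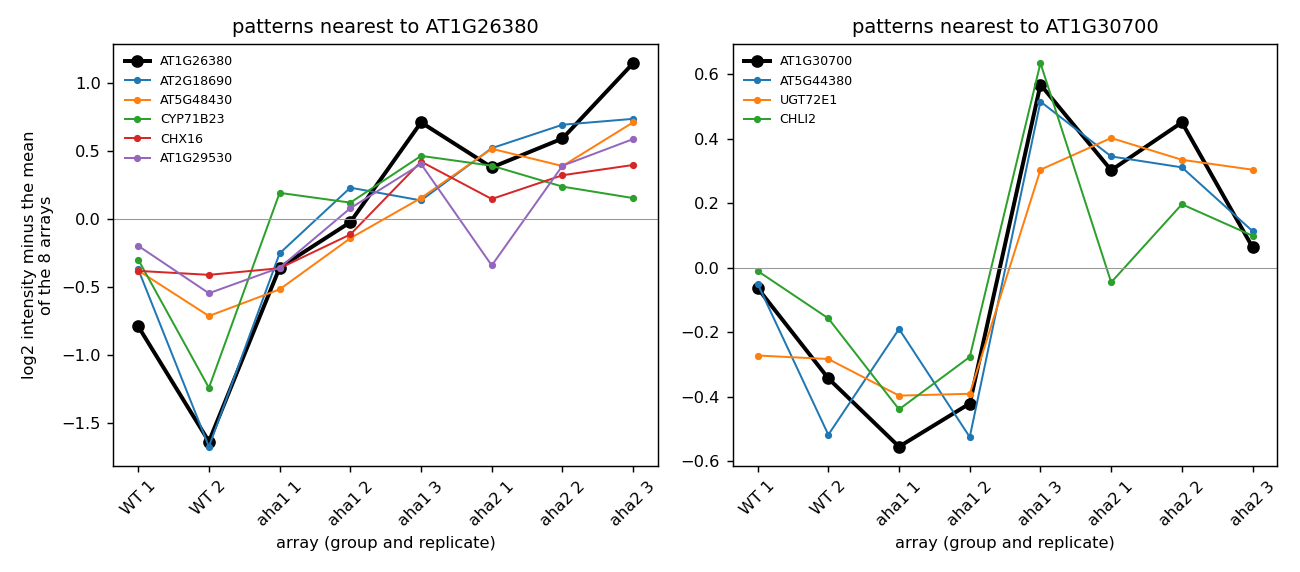
Log2 intensity minus the gene's mean over the 8 arrays, for AT1G26380 (left), AT1G30700 (right) and the nearest patterns among brighter probe sets. Lines only join the points of a gene, and arrays of a group have no order. AT1G26380 and AT2G18690 are lowest on the set 2 wild type array, and AT1G30700 and AT5G44380 are highest on the aha1-7 array (aha1 replicate 3).

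Other genes of the processes in which the family is known to act were mostly without a single-gene probe set. Of the 11 listed genes of indole defence metabolism and the 6 of the salicylate response, 0 could be read by name, so the partners of AT1G26380 in its pathway are not analysed here. Of 10 transcription factors of defence, 2 were measured. WRKY6 had fitted differences of 0.40 (SE 0.21; limma, adjusted p = 0.937) in aha1 and 0.11 (SE 0.21; adjusted p = 0.9998) in aha2, and WRKY53 of 0.067 (SE 0.21) and -0.19 (SE 0.21). Of 9 elicitor response genes, AT1G51890 and AT2G17740 were measured, with differences of 0.42 (SE 0.20) and 0.26 (SE 0.44) in aha2 and 0.12 and 0.24 in aha1. Of 12 genes of detoxification and oxidative stress, 3 were measured. GSTU25, a glutathione transferase, and UGT73B5, a glucosyltransferase, were at 0.54 (SE 0.35) and 0.34 (SE 0.23) in aha2 and at -0.16 and -0.28 in aha1. AT2G21640, known as a marker of oxidative stress, was at -0.022 in aha2 and 0.21 in aha1. With limma, 0 of these 7 genes passed in either direction in any of the 3 comparisons, the smallest adjusted p being 0.415. At an unadjusted p under 0.05 there was 1, UGT73B5 in aha1 against aha2, at -0.62 (SE 0.21). In that comparison 10.6% of all probe sets were under this limit. UGT73B5 also had all 3 aha2 arrays above the other 5 arrays, as had 3.64% of the probe sets.

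Whole seedlings hold root and shoot, and in such bulk samples fewer cells of a type and less RNA per cell cannot be told apart. Of the 6 root markers 2 were measured, PYK10, a root beta-glucosidase, and EXPA7, a root hair expansin. Their summed signal was 29671 to 33201 in wild type, 28074 to 39987 in aha1 and 24644 to 34626 in aha2. EXPA7 was at 8.43 ± 0.39 (SD, n = 2), 7.87 ± 0.60 (SD, n = 3) and 8.81 ± 0.27 (SD, n = 3) in that order. Of the 7 shoot markers only RCA, the activase of the carbon-fixing enzyme Rubisco, was measured, at 37054 to 40199 in wild type, 43251 to 53869 in aha1 and 35270 to 57927 in aha2. These ranges of signal overlapped, apart from RCA in wild type and aha1. In normalized values RCA overlapped there as well, with a fitted difference of aha1 from wild type of 0.14 (SE 0.18). The summed root signal is mostly PYK10. EXPA7 alone was at 8.35 and 8.05 in aha1-6 and 7.20 in aha1-7, against 8.83 and 9.07 in aha2-4 and 8.52 in aha2-5. All 3 aha1 arrays thus lay below all 3 aha2 arrays, as at 8.09% of all probe sets. The fitted difference of aha1 from aha2 at EXPA7 was -0.94 (SE 0.31, limma adjusted p = 0.415), the same direction as at 5 of the 6 BBE-like genes. PYK10 went the other way, at 0.16 (SE 0.18). The part of tissue make-up in the levels of the BBE-like genes was not tested.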

How the data were processed

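Total RNA of 8 seedling samples (2 wild type, 3 aha1, 3 aha2) was measured on 1 single-colour array each. The deposited table holds linear intensity values for 22810 probe sets, which the authors made in Affymetrix Expression Console 1.1 (from the submitters' processing notes). How probes were summarised is not stated. Every array had a 2% trimmed mean of 1000.1. No depth applies, and the number of arrays limits the precision.

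Intensities were taken as log2(value + 1), quantile normalized, and 64 array controls were left out. A model with group and set was fitted to 22746 probe sets with limma 3.58.1 in R 4.3.3 (lmFit, eBayes, 4 residual degrees of freedom), with Benjamini-Hochberg adjustment at 0.05. The fit was tested on simulated data. No 2 arrays shared more than 0.00438% identical values. Replicate numbers only name arrays and pair none.

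Names of probe sets come from the platform annotation, updated through the RefSeq table of TAIR10.1: 13513 had 1 gene, 503 several and 8730 none. The array has no genome build here, so no coordinates are given, and no sequences were used. The brighter 11373 probe sets are those above the median by mean over all arrays.

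The genes and lists were chosen with earlier results of these data known. The text names all genes of the rule, all measured genes of lists with up to 6 measured, and otherwise the 3 with the highest mean. It also names the nearest patterns (5 for AT1G26380, 3 for AT1G30700). The alternatives tried were another offset, median scaling, a filter on dim probe sets, other treatments of set, a variance trend, 2 groups alone, and leaving out each array.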

Additional observations from a re-analysis of the deposited data

How the results depend on the processing

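Under the alternatives the fitted differences of single genes kept their direction in 98 of 101 values for aha2 against wild type, 92 of 101 for aha1 against wild type and 99 of 101 for aha1 against aha2. Part of these values could not change, since the variance trend and the dim filter by itself leave a gene's fitted difference as it was. For aha1 against aha2, dropping the set term or making it a random block did so too. The counts therefore do not measure how stable the directions are. The median over the 6 genes for aha2 against wild type, 1.12, was 0.77 with 16 added before the logarithm, 0.39 within set 1 and 1.46 within set 2. It ran from 0.34 to 1.47 when arrays were left out one at a time. The median for aha1 against wild type was 0.22 within set 1 and ran from 0.13 to 0.78 when arrays were left out, and that for aha1 against aha2 ran from -0.77 to -0.29. Counting the shared probe set as a further member, an alternative chosen after seeing the data, moved no median beyond the spread between replicates. With a filter on dim probe sets not all 6 genes were left, so no median was taken.

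Without wild type replicate 2, AT1G26390 and AT1G26400 turned to -0.0020 and -0.33 in aha2 against wild type, and AT1G26390, AT1G26420 and AT1G30700 to -0.45, -0.050 and -0.27 in aha1 against wild type. Without aha1 replicate 3, the aha1-7 array, AT1G26390 and AT1G30700 were at -0.069 and -0.28 in aha1 against wild type, the latter also with the dimmest 50% of probe sets left out. Without aha2 replicate 1, AT1G26400 was at -0.26 in aha1 against aha2. The highest values of these genes with an array left out were 1.08 and 2.41 for AT1G26390 and AT1G26400 in aha2 against wild type, 0.63, 0.94 and 0.35 for AT1G26390, AT1G26420 and AT1G30700 in aha1 against wild type, and 1.06 for AT1G26400 in aha1 against aha2. The cause was not tested in any of these.

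The count of genes past the threshold was 0 in each comparison (limma) and changed only with the aha1-7 array and the dimmest 50% left out together, whether the filter was taken over all 8 arrays or over the other 7. These counts are descriptions, since the genes were chosen with both comparisons known. Over all 8, the count was 1 (AT1G26380, log2 difference 1.90) in aha2 against wild type, where 0.536% of 11373 probe sets passed, and 1 (AT1G30700, -0.77) in aha1 against aha2, where 3.15% passed. Over the other 7, an alternative chosen after seeing the data, AT1G26380 fell out, with a mean of 8.56 against a limit of 8.58 (8.66 against 8.59 over all 8), so 0 passed in aha2 against wild type and 1, AT1G30700, in aha1 against aha2. No paired analysis was possible because the labels give no replicate numbers to pair single arrays by. Set, which they do give, is a term of the model, and as a random block it left the medians at 1.13, 0.53 and -0.52 and the counts at 0.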

Other observations

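Of the further BBE-like genes, AT5G44360 had the lowest fitted difference between the mutants, -2.43 (SE 0.54) for aha1 against aha2 (limma, adjusted p = 0.349), and was chosen after its values were seen. Its signal was 4.38 to 63.6 over the 8 arrays, so the size of this difference rests on the offset and is no measured fold. AT5G44390, chosen in the same way, had all 3 aha1 and all 3 aha2 arrays above the wild type array of their set, with fitted differences of 0.999 for aha1 (limma, adjusted p = 0.831) and 0.41 for aha2. The aha2 difference at AT1G26400 was larger in set 2 than in set 1 by 3.73 on the log2 scale. This gene was named after its values were seen, and its signals were under 50 on every array. Set 1 holds 1 array per group, and set 2 holds 1 wild type array. The value is therefore a description, from which it cannot be told whether the difference was stable between the sets.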
